A study of Zea mays with 24 samples.

Results

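The transcripts described here code for enzymes of the tricarboxylic acid (TCA) cycle and of the oxidative pentose phosphate pathway (OPP pathway) in maize source leaves. The 48 members are all entries under these 2 headings of the study's pathway list, each looked up by its probe identifier among the 41780 transcript probes of the array. The TCA cycle had 25 members in 11 enzyme steps and the OPP pathway 23 members in 9 steps. Members were chosen by their annotation and not by a measured value, though with earlier results of these data known.

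Leaves of the maize inbred line B73 came from 3 separate experiments, and in each of them 4 stressed and 4 control samples were set against each other, with 1 array per sample. Low temperature (low T) plants had 28°C days and 4°C nights, against 20°C nights for control T, and leaf 5 was taken at day 20. Low N plants received 0.15 mM KNO3, against 15 mM for control N, and low P plants 0.1 mM KH2PO4, against 0.5 mM for control P, with leaf 6 taken at day 30 in both. Low T and its control also received the full nutrient solution, and the nutrient experiments kept the 20°C nights. The low T and low N plants were grown in successive sets and the low P plants in a single set, and the low T experiment used other growth chambers than the nutrient experiments. The samples held homogenised leaf lamina, so that fewer cells of a type and less RNA per cell cannot be told apart.

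The TCA cycle runs in mitochondria. It takes up acetyl-CoA, which the pyruvate dehydrogenase complex makes from pyruvate, releases CO2 and passes electrons to the respiratory chain, and it supplies 2-oxoglutarate as the carbon skeleton for ammonium assimilation. The OPP pathway runs in plastids and in part in the cytosol: its oxidative branch yields NADPH, for example for nitrite reduction, and its reversible branch interconverts sugar phosphates and gives ribose 5-phosphate for nucleotides. In green leaves the reversible steps overlap with the Calvin cycle, so that ribulose-phosphate epimerase, ribose-5-phosphate isomerase and transketolase also serve carbon fixation.

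Values are log2 signals after subtraction of the 75th percentile of the transcript probes on the same array, so that 0 is the signal of a fairly bright probe and 1 unit is a factor of 2. A transcript was called, and is said to have risen or fallen, where its level changed more than 2-fold and limma gave an adjusted p under 0.05 (Benjamini-Hochberg, over the 31507 probes well above background in at least 1 group). All 48 members were among these probes, and 47 of them had a signal well above background on each of the 24 arrays. The arrays had 25780 to 36966 probes well above background, and no member spot was saturated or carried an outlier flag. All 6 probes for markers of the 2 photosynthetic cell types of the maize leaf were well above background on every array. They code for C4 phosphoenolpyruvate carboxylase and pyruvate orthophosphate dikinase (mesophyll), and NADP-malic enzyme, the Rubisco small subunit and phosphoenolpyruvate carboxykinase (bundle sheath). The dikinase probe (GRMZM2G097457) was far dimmer than the carboxylase probe, with means of 2.14 and 9.03 in control T leaves. Whether it reads the dikinase copy of the C4 pathway was not checked. All low P arrays lay on 1 slide and all control P arrays on another, so that in that experiment treatment and slide cannot be told apart. In the low N experiment only 1 of 4 slides held arrays of both groups, so that there they can be told apart only in part.

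In all 9 members were called in at least 1 stress, none of them in all 3, and they lay in 3 of the 11 steps of the TCA cycle and in 6 of the 9 steps of the OPP pathway. Under low T 1 member rose, an NADP-dependent isocitrate dehydrogenase, and 2 fell, a ribose-5-phosphate isomerase and a ribose-phosphate pyrophosphokinase. Under low N 3 members fell and 0 rose: a pyruvate dehydrogenase, a glucose-6-phosphate dehydrogenase and a 6-phosphogluconate dehydrogenase. Under low P the same glucose-6-phosphate dehydrogenase and 6-phosphogluconate dehydrogenase fell, and 4 members rose: a subunit of 2-oxoglutarate dehydrogenase, a glucose-6-phosphate isomerase, a 6-phosphogluconolactonase-like protein and the ribose-5-phosphate isomerase that fell under low T. The 2 members that fell under both nutrient deficiencies are single copies of the NADPH-forming enzymes of the oxidative branch, which had 5 and 3 members. No other copy of these enzymes was called. Under low P the 2 other 6-phosphogluconate dehydrogenases had higher values, with log2 changes of 0.56 and 0.36 (adjusted p = 0.00291 and 0.0319).

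The called share was 3 of 48 under low T, or 6.25%, beside 14.4% of all tested probes. It was 3 of 48 under low N as well, beside 5.80% of all probes, and 6 of 48 under low P, or 12.5%, beside 11.2%. By direction, 7.25% of all probes were called higher and 7.12% lower under low T, 2.68% and 3.12% under low N, and 8.21% and 3.01% under low P. The members' shares were therefore near the background under low N and low P and less than it under low T. When the arrays were instead scaled on spike-in probes, 2 members were called higher and 0 lower under low T, 1 higher and 2 lower under low N, and 11 higher and 2 lower under low P. With it the median change over the tested probes was 0.153 under low T, 0.534 under low N and 0.547 under low P on the log2 scale, against -0.065, -0.041 and 0.032 without it.

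**Figure D1:**
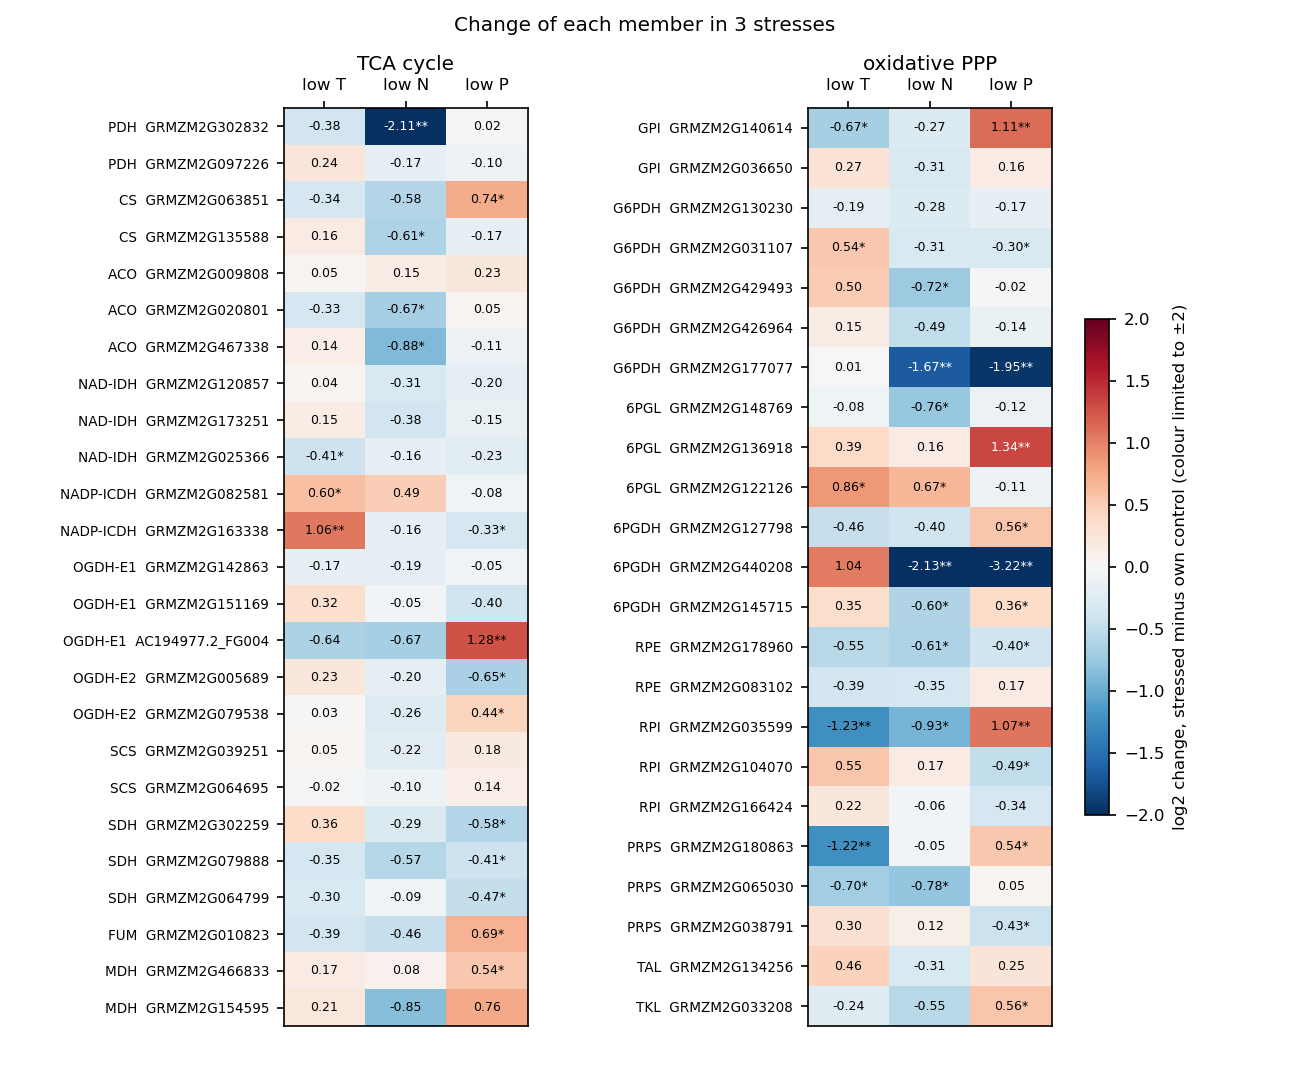
Log2 change (stressed minus own control, 4 arrays each) of the 25 TCA cycle members and 23 oxidative PPP members, by enzyme step and locus, in low T, low N and low P. Blue is lower and red higher than the control, * marks an adjusted p under 0.05 and ** a fold change over 2 as well; the darkest cells are PDH GRMZM2G302832 under low N and, under low N and low P, G6PDH GRMZM2G177077 and 6PGDH GRMZM2G440208. Step names are PDH, pyruvate dehydrogenase; CS, citrate synthase; ACO, aconitase; NAD-IDH and NADP-ICDH, NAD- and NADP-dependent isocitrate dehydrogenase; OGDH, 2-oxoglutarate dehydrogenase; SCS, succinyl-CoA synthetase; SDH, succinate dehydrogenase; FUM, fumarase; MDH, malate dehydrogenase; GPI, glucose-6-phosphate isomerase; G6PDH, glucose-6-phosphate dehydrogenase; 6PGL, 6-phosphogluconolactonase-like; 6PGDH, 6-phosphogluconate dehydrogenase; RPE, ribulose-phosphate 3-epimerase; RPI, ribose-5-phosphate isomerase; PRPS, ribose-phosphate pyrophosphokinase; TAL, transaldolase; TKL, transketolase.

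Pyruvate dehydrogenase feeds the TCA cycle with acetyl-CoA, and plants hold one such complex in mitochondria and another in plastids, where it serves fatty acid synthesis. The annotation used here gives the activity but not the compartment of the 2 pyruvate dehydrogenase members. OptiV1C12000 (GRMZM2G302832) had -1.36, -1.29, -1.24 and -1.29 in the 4 low N leaves, against 0.81, 0.41, 1.11 and 0.95 in the control N leaves. The 4 low N values lay close together and well apart from the controls, a log2 change of -2.11 ± 0.17 (SE, n = 4 each), or 4.33-fold lower (adjusted p = 0.000454). Within the only slide that held arrays of both groups the difference was -2.37, from 2 low N arrays and 1 control N array. The transcript had 0.93, 1.2, 1.39 and 0.79 in low P leaves, against 0.7, 1.55, 1.65 and 0.33 in control P leaves. These values overlapped, and the log2 change was 0.02 ± 0.31 (SE).

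In the low T experiment the same transcript had 0.93, 1.31, 1.03 and 1.29 in stressed leaves, against 0.78, 0.47, 2.31 and 2.52 in control T leaves. Control replicates 1 and 2 were low and replicates 3 and 4 high, and these pairs lay on different slides. The difference was 0.50 on the first slide and -1.26 on the second, so that the pooled log2 change of -0.38 ± 0.46 (SE, adjusted p = 0.556) averages opposite values. The other pyruvate dehydrogenase, OptiV1S31451 (GRMZM2G097226), stayed between -0.17 and 0.24 in all 3 stresses and passed no test.

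Citrate synthase condenses acetyl-CoA with oxaloacetate. Its 2 loci differed under low P: GRMZM2G063851, listed as cts1 among the synonyms of a gene table, had a log2 change of 0.74 ± 0.14 (SE, adjusted p = 0.00464), and GRMZM2G135588 one of -0.17 ± 0.08 (adjusted p = 0.118). Under low N both were lower, by -0.58 and -0.61 on the log2 scale, and GRMZM2G135588 passed the adjusted p alone (0.0132). GRMZM2G135588 has a further probe outside the pathway list, which the study names among its changed transcripts and which is given for description only. That probe, OptiV1S19594, had -0.05, -0.82, -0.58 and -0.46 in low T leaves, against -1.72, -1.67, -2.04 and -1.96 in control T leaves. The member probe of this locus, OptiV1C17009, showed a log2 change of 0.16 ± 0.11 (SE) under low T, against 1.37 ± 0.19 for the further probe, so that 2 probes of 1 locus disagreed.

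Aconitase, which turns citrate into isocitrate, had 3 members, and 2 of them, GRMZM2G467338 and GRMZM2G020801, were lower under low N with log2 changes of -0.88 ± 0.24 and -0.67 ± 0.17 (SE) and passed the adjusted p alone. The third, GRMZM2G009808, had changes of 0.05, 0.15 and 0.23 under low T, low N and low P. The mitochondrial NAD-dependent isocitrate dehydrogenase had 3 members with changes between -0.41 and 0.15 in all stresses. Its gamma subunit, GRMZM2G025366, was lower under low T by -0.41 ± 0.13 (SE, adjusted p = 0.0486).

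NADP-dependent isocitrate dehydrogenase makes 2-oxoglutarate together with NADPH, and its cytosolic form is regarded as a source of 2-oxoglutarate for amino acid synthesis. OptiV1C10069 (GRMZM2G163338) had 1.5, 1.58, 1.87 and 1.52 in low T leaves, against 0.42, 0.37, 0.78 and 0.66 in control T leaves. All stressed values were above all control values, a log2 change of 1.06 ± 0.15 (SE, n = 4 each), or 2.09-fold (adjusted p = 0.00165). The difference was 1.14 on the first slide and 0.98 on the second. It stayed just under the fold limit with normexp background correction, at 0.97 (adjusted p = 0.0379), and was called under the 12 other alternatives. Under low P it had 0.39, 0.27, 0.54 and 0.44, against 0.69, 0.65, 0.71 and 0.91 in control P leaves, which was lower by -0.33 ± 0.09 (SE, adjusted p = 0.0252). Under low N it had 0.82, 0.76, 0.31 and 0.59, against 0.89, 0.92, 0.58 and 0.73 in control N leaves, and these values overlapped. The other member of this step, GRMZM2G082581, was higher under low T by 0.60 ± 0.13 (SE, adjusted p = 0.00901), and had 0.49 ± 0.14 under low N (adjusted p = 0.0634) and -0.08 ± 0.13 under low P. Both members of this step were thus higher in the cold, where 15.2% of all probes passed the adjusted p with a higher value and 15.8% with a lower one. It was the only step of the TCA cycle in which every member passed in that stress. GRMZM2G082581 no longer passed with normexp (adjusted p = 0.127) or without replicate 1 or 2 (0.0736 and 0.0655).

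2-Oxoglutarate dehydrogenase, the complex that converts 2-oxoglutarate to succinyl-CoA, had 3 members for its E1 subunit and 2 for E2. OptiV1S26218 (AC194977.2_FG004), an E1 subunit, had 0.92, 0.79, 0.47 and 0.36 in low P leaves, against -0.85, -0.81, -0.6 and -0.32 in control P leaves. The groups did not overlap, and the log2 change was 1.28 ± 0.17 (SE, n = 4 each), or 2.43-fold (adjusted p = 0.00072). In the other stresses the mean of the same transcript was lower than in the controls, and whether this passed the adjusted p depended on the fit. It had -0.94, -0.86, -1.25 and -1.73 in low T leaves, against -0.47, -0.43, -0.28 and -1.02 in control T leaves, a log2 change of -0.64 ± 0.24 (SE, adjusted p = 0.0739, 0.0214 with the replicate block and 0.0348 with slide as a block). In low N leaves it had -0.99, -0.62, -0.8 and -0.79, against -0.39, -0.47, 0.38 and -0.03 in control N leaves, a change of -0.67 ± 0.2 (SE, adjusted p = 0.0726, 0.0779 with the replicate block). With slide as a random block it was -0.98 (adjusted p = 0.00867). The 2 other E1 members had changes between -0.40 and 0.32 and passed no test. Under low P the 2 E2 members, dihydrolipoamide succinyltransferases, differed in sign: GRMZM2G005689 was lower by -0.65 ± 0.09 (SE, adjusted p = 0.000762) and GRMZM2G079538 higher by 0.44 ± 0.1 (adjusted p = 0.00809).

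Of the later steps, succinyl-CoA synthetase, which makes ATP or GTP from succinyl-CoA, had 2 members with changes between -0.22 and 0.18. Succinate dehydrogenase links the cycle to the respiratory chain. Under low P its 3 members, 1 iron-sulphur and 2 flavoprotein subunits, all passed the adjusted p in the same direction, with log2 changes of -0.58 ± 0.08, -0.41 ± 0.08 and -0.47 ± 0.11 (SE, n = 4 each; adjusted p = 0.00121, 0.00413 and 0.0124), while 20.2% of all probes passed lower. Scaled on spike-in probes the 3 had -0.07, 0.11 and 0.05 and none passed (adjusted p = 0.794, 0.635 and 0.85), and with normexp background correction only the iron-sulphur subunit did (0.0317, against 0.236 and 0.262). Under low T and low N none of them passed, with changes between -0.57 and 0.36. Fumarase, which hydrates fumarate to malate, had 1 member, GRMZM2G010823, and it was higher under low P by 0.69 ± 0.1 (SE, adjusted p = 0.00141). Its changes of -0.39 under low T and -0.46 under low N did not pass (adjusted p = 0.0717 and 0.0637). Malate dehydrogenase restores oxaloacetate, and the mitochondrial member GRMZM2G466833 was higher under low P by 0.54 ± 0.09 (SE, adjusted p = 0.00203). The putative mitochondrial member GRMZM2G154595 was the dimmest of the 48 and the only one not well above background throughout. It was well above background on 3 of 4 low P arrays and not on any control P array. With control signals raised to at least the dimmest signal still well above background, the low P mean was 1.53-fold higher. This is not a lower bound, since not every low P signal was well above background either. The groups overlapped, with a lowest low P value of -6.1 and a highest control P value of -6.08. The measured log2 change of 0.76 ± 0.27 (SE) did not pass (adjusted p = 0.0544).

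The first enzyme of the OPP pathway, glucose-6-phosphate dehydrogenase, oxidises glucose 6-phosphate with formation of NADPH and is regarded as its control point. It had 5 members. OptiV1C08554 (GRMZM2G177077), listed as glucose-6-phosphate 1-dehydrogenase 2, had -1.31, -1.26, -1.29 and -1.41 in low P leaves, against 0.72, 0.95, 0.64 and 0.2 in control P leaves. The groups lay far apart, with a log2 change of -1.95 ± 0.15 (SE, n = 4 each), or 3.86-fold lower (adjusted p = 6.54e-05). In low N leaves the transcript had -1.77, -1.82, -2.13 and -2.29, against -0.02, -0.23, -0.55 and -0.53 in control N leaves. These groups did not overlap either, with a log2 change of -1.67 ± 0.18 (SE), or 3.18-fold lower (adjusted p = 0.00189), and -1.66 within the shared slide. Scaled on spike-in probes the low N change was -1.10 and no longer called (adjusted p = 0.0782).

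Under low T the same transcript had -1.81, -1.39, -1.33 and -1.47, against -1.88, -2.03, -1.19 and -0.94 in control T leaves. The pooled log2 change was 0.01 ± 0.26 (SE), with 0.36 on the first slide and -0.34 on the second. The control T level was thus about as low as that of the low N and low P leaves, and the higher level was found in control N and control P leaves, which were older and of another leaf position.

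The 4 other glucose-6-phosphate dehydrogenases moved less. The cytoplasmic isoform GRMZM2G031107 was higher under low T by 0.54 ± 0.12 (SE, adjusted p = 0.0119) and lower under low P by -0.30 ± 0.1 (adjusted p = 0.0398). The chloroplast precursor GRMZM2G429493 was lower under low N by -0.72 ± 0.15 (SE, adjusted p = 0.0199) and had 0.50 ± 0.3 under low T (adjusted p = 0.242). The remaining cytoplasmic isoform GRMZM2G130230 and chloroplast precursor GRMZM2G426964 stayed between -0.49 and 0.15 and passed in no stress.

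6-Phosphogluconolactonase hydrolyses the lactone formed in the first step, and its 3 members, annotated as like this enzyme, had 3 different patterns. OptiV1C11022 (GRMZM2G136918) had 1.48, 1.32, 1.03 and 1.21 in low P leaves, against -0.1, 0.18, -0.29 and -0.1 in control P leaves. All low P values were far above the controls, a log2 change of 1.34 ± 0.13 (SE, n = 4 each), or 2.53-fold (adjusted p = 0.000198). It had 0.72, 0.93, 1.1 and 0.82 in low T leaves, against 0.79, 0.63, 0.35 and 0.23 in control T leaves, and 0.29, 0.4, 0.38 and 0.39 in low N leaves, against 0.31, 0.64, 0.12 and -0.22 in control N leaves. Values overlapped in both of these experiments. GRMZM2G122126 was higher under low T by 0.86 ± 0.2 (SE, adjusted p = 0.0148) and under low N by 0.67 ± 0.15 (adjusted p = 0.0252), the only member of the 48 that passed the adjusted p with a higher value under low N (0.055 with the replicate block). GRMZM2G148769 was lower under low N by -0.76 ± 0.18 (SE, adjusted p = 0.0299).

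6-Phosphogluconate dehydrogenase, the second NADPH-forming enzyme, releases CO2 and gives ribulose 5-phosphate. Its 3 members are all described as cytosolic in the study's list, and this compartment was not checked for any of them. The gene table gives pgd3 as a synonym of GRMZM2G440208, pgd2 of GRMZM2G127798 and pdh1 of GRMZM2G145715. OptiV1C15127 (GRMZM2G440208) had 0.28, 0.38, 1.13 and 0.21 in low P leaves, against 3.41, 4.56, 4.19 and 2.72 in control P leaves. This was the largest difference of any member in the 3 stresses, a log2 change of -3.22 ± 0.4 (SE, n = 4 each), or 9.33-fold lower (adjusted p = 0.000603). In low N leaves it had 0.96, 0.97, 1.24 and 1.21, against 3.2, 2.72, 3.58 and 3.39 in control N leaves. The change was -2.13 ± 0.2 (SE), or 4.36-fold lower (adjusted p = 0.000934), with -2.35 within the shared slide, and as under low P no stressed value reached a control value.

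Under low T OptiV1C15127 had 1.72, 2.55, 2.47 and 2.36, against -0.01, -0.21, 1.97 and 3.19 in control T leaves. Stressed leaves of the first slide were far above their controls, by 2.25, and those of the second slide differed from theirs by -0.17, so that the pooled log2 change of 1.04 ± 0.72 (SE) was not called (adjusted p = 0.3). The control T spread (SD of 4 arrays) of this transcript was 1.64, against 0.37 in control N and 0.82 in control P. In the control T leaves the same split, with replicates 1 and 2 lower than replicates 3 and 4, was seen in the pyruvate dehydrogenase OptiV1C12000 and in the glucose-6-phosphate dehydrogenase OptiV1C08554. It was not limited to these transcripts, and OptiV1S22785, for example, had -0.43, -0.52, 0.5 and 0.76. Others split the reverse way, such as OptiV1C00968 (1.58, 1.59, 0.76 and 0.49) and OptiV1C01002 (2.9, 2.96, 2.25 and 2.15). The part of the slide, scan day or experimental set in these splits was not tested.

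The 2 other 6-phosphogluconate dehydrogenases went the other way from OptiV1C15127 under low P. GRMZM2G127798 was higher by 0.56 ± 0.1 (SE, adjusted p = 0.00291) and GRMZM2G145715 by 0.36 ± 0.11 (adjusted p = 0.0319). Under low N GRMZM2G145715 was lower, by -0.60 ± 0.14 (SE, adjusted p = 0.0294), and GRMZM2G127798 had -0.40 ± 0.15 (adjusted p = 0.133). The probe sequences were not used here, so that signal shared between close copies of an enzyme was not checked.

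**Figure D2:**
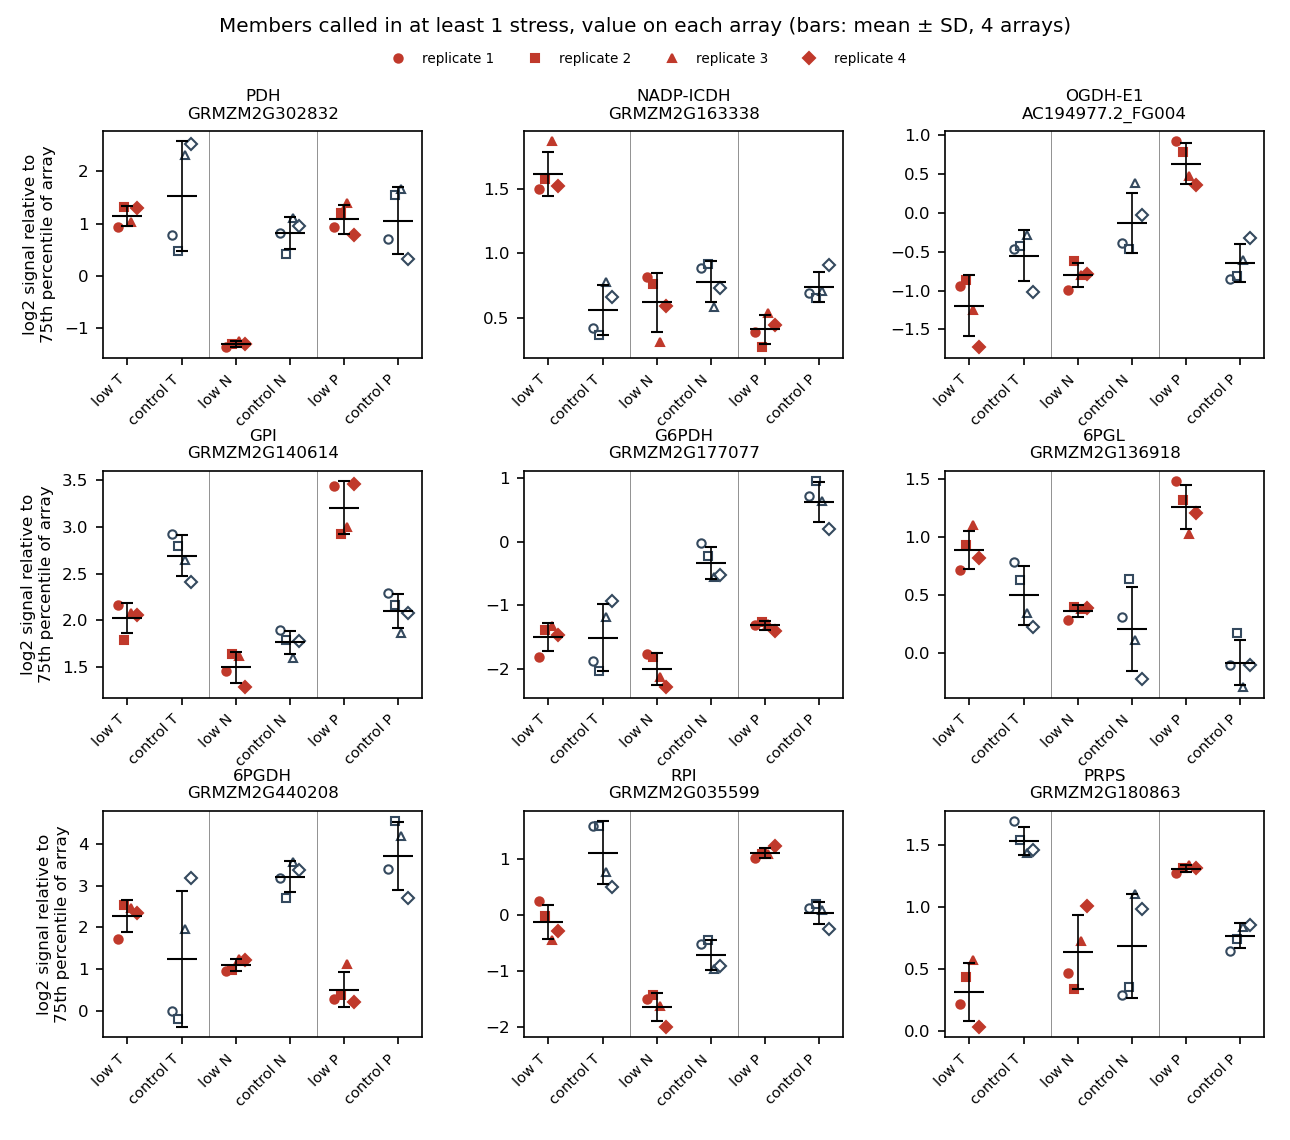
Log2 signal, with the array's 75th percentile as 0, of the 9 members called in at least 1 stress. Filled red symbols are stressed leaves and open symbols their controls, and the symbol shape gives the replicate number. Bars are the mean ± SD of 4 arrays. PDH, G6PDH and 6PGDH separate from their controls under low N, and G6PDH and 6PGDH under low P. In control T leaves all 3 split by replicate, and other members did so too, RPI among them in the opposite direction.

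Glucose-6-phosphate isomerase connects the pathway to glycolysis and to starch and sucrose synthesis. OptiV1C09445 (GRMZM2G140614) had 3.44, 2.92, 3.0 and 3.46 in low P leaves, against 2.29, 2.16, 1.86 and 2.08 in control P leaves, with no overlap. The log2 change was 1.11 ± 0.16 (SE, n = 4 each), or 2.15-fold (adjusted p = 0.00115). In low T leaves it had 2.16, 1.79, 2.08 and 2.05, against 2.92, 2.8, 2.64 and 2.41 in control T leaves, again without overlap and in the opposite direction. This change of -0.67 ± 0.15 (SE, adjusted p = 0.0123) was below the fold limit. In low N leaves it had 1.45, 1.64, 1.61 and 1.28, against 1.89, 1.79, 1.59 and 1.78 in control N leaves, and these values overlapped. The study names 2 further probes of this locus among its changed transcripts. These had log2 changes of 1.13 and 1.11 under low P and -0.57 and -0.65 under low T. Since they were found through a list of changed transcripts from the same arrays, they are given for description only. The cytosolic isomerase GRMZM2G036650 had changes between -0.31 and 0.27 and passed no test.

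In the reversible branch, ribose-5-phosphate isomerase interconverts ribulose 5-phosphate and ribose 5-phosphate. Its member OptiV1C00968 (GRMZM2G035599) was the only one of the 48 that passed the adjusted p in all 3 stresses, and it did so in opposite directions. It had 0.25, -0.02, -0.45 and -0.29 in low T leaves, against 1.58, 1.59, 0.76 and 0.49 in control T leaves, a log2 change of -1.23 ± 0.29 (SE, n = 4 each; 2.35-fold lower, adjusted p = 0.0151). The difference was -1.47 on the first slide and -0.99 on the second. It had -1.51, -1.44, -1.64 and -2.01 in low N leaves, against -0.52, -0.45, -0.98 and -0.91 in control N leaves, a change of -0.93 ± 0.19 (SE, adjusted p = 0.0189), just short of the fold limit. In low P leaves it had 1.01, 1.09, 1.09 and 1.22, against 0.12, 0.19, 0.08 and -0.26 in control P leaves, a change of 1.07 ± 0.11 (SE; 2.1-fold, adjusted p = 0.000276). Stressed and control leaves did not overlap in any of the 3 experiments.

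The low T call of this isomerase was lost without replicate 1, 2 or 3, with adjusted p = 0.0509, 0.0709 and 0.0519, and under spike-in scaling (-1.01, adjusted p = 0.0632). It was kept under 9 of 13 alternatives, among them slide as a block and the replicate block (adjusted p = 0.000796 and 0.00693). The low P call was lost without replicate 4, where the change was 0.94, and with normexp background correction, where it was 0.97. Under low N the change was -0.36 with spike-in scaling (adjusted p = 0.497). Of the 2 other ribose-5-phosphate isomerases, GRMZM2G104070 had 0.55 ± 0.25 under low T (SE, adjusted p = 0.135) and was lower under low P by -0.49 ± 0.13 (adjusted p = 0.0169), and GRMZM2G166424 stayed between -0.34 and 0.22 and passed no test.

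Ribose-phosphate pyrophosphokinase makes phosphoribosyl pyrophosphate, the precursor of nucleotides and of histidine, from ribose 5-phosphate. OptiV1C00764 (GRMZM2G180863), listed with a question mark as chloroplastic, had 0.22, 0.43, 0.57 and 0.03 in low T leaves, against 1.69, 1.54, 1.43 and 1.46 in control T leaves. The groups were well separated, with a log2 change of -1.22 ± 0.15 (SE, n = 4 each), or 2.32-fold lower (adjusted p = 0.00104), and -1.29 and -1.14 on the 2 slides. In low P leaves the 4 values were 1.27, 1.31, 1.34 and 1.31, against 0.64, 0.74, 0.84 and 0.85 in control P leaves, higher by 0.54 ± 0.08 (SE, adjusted p = 0.00117) but under the fold limit. In low N leaves it had 0.47, 0.34, 0.72 and 1.01, against 0.29, 0.35, 1.1 and 0.98 in control N leaves, which overlapped. GRMZM2G065030 was lower under low T and low N, by -0.70 ± 0.13 and -0.78 ± 0.18 (SE, adjusted p = 0.00535 and 0.0331). GRMZM2G038791 was lower under low P by -0.43 ± 0.09 (SE, adjusted p = 0.0063).

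The other reversible steps had no called member. The chloroplastic ribulose-phosphate 3-epimerase GRMZM2G178960 was lower under low N and low P, by -0.61 ± 0.15 and -0.40 ± 0.13 (SE, adjusted p = 0.0393 and 0.0405), and had -0.55 ± 0.2 under low T (adjusted p = 0.0671). Transketolase, which moves 2-carbon units between sugar phosphates, was higher under low P by 0.56 ± 0.19 (SE, adjusted p = 0.0495) and had -0.24 and -0.55 under low T and low N. Transaldolase had 0.46, -0.31 and 0.25 in the 3 stresses, and the cytosolic epimerase GRMZM2G083102 had -0.39, -0.35 and 0.17, and neither passed within a stress.

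Counted over both lists without the fold limit, 9 of 48 members passed the adjusted p under low T, 4 higher and 5 lower, beside 31.1% of all probes (15.2% higher and 15.8% lower). Under low N 13 passed, 1 higher and 12 lower, beside 11.1% of all probes (5.33% higher and 5.76% lower). Under low P 23 passed, 12 higher and 11 lower, beside 41.1% of all probes (20.9% higher and 20.2% lower). The 13 members under low N were 27.1% of the 48. Scaled on spike-in probes, however, only 3 passed, or 6.25%, beside 10.2% of all probes, so that the order of the 2 shares depended on the scaling. Under low P 7 of the 23 changes turned in sign with that scaling, all of them negative without it, and 14 kept sign and test. The number under low N also depended on single replicates, with 3 left without replicate 1 or 2, 7 without replicate 3 and 4 without replicate 4. Over all probes the share then lay between 1.99% and 6.2%. With slide as a block 21 of 48 members passed under low T, 8 higher and 13 lower, beside 46% of all probes. With slide as a random block, for which the fit gave a correlation of 0.69 within slides, 18 passed under low N. Of these 1 was higher and 17 lower, beside 21.6% of all probes that passed. With the replicate block 9 members passed under low N and 11 under low T, beside 13.7% and 37.4% of all probes. Those that no longer passed with the block were, under low N, both aconitases, GRMZM2G148769, GRMZM2G122126 and GRMZM2G065030 (adjusted p between 0.055 and 0.0659) and, under low T, the gamma subunit GRMZM2G025366 (0.0747). Stressed and control arrays did not overlap for 22 of 48 members under low N, or 45.8%, beside 21.3% of all probes, for 15 under low T, beside 35.3%, and for 24 under low P, beside 42.5%.

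Under low N 41 of 48 members had a log2 change below 0 (22 of 25 in the TCA cycle and 19 of 23 in the OPP pathway), beside 53.8% of all probes. The median log2 change was -0.309 over the members and -0.041 over all probes. Scaled on spike-in probes only 15 of 48 members were below 0, so that the sign depended on the scaling. The medians were then 0.265 over the members and 0.534 over all probes. Under either scaling 41 of 48 members lay below the median of all probes, and the medians lay 0.268 apart. Both scalings subtract 1 constant per array, so these 2 values could not differ between them. With quantile normalization 39 of 48 members lay below the median of all probes, and the members' median differed from it by -0.247. With normexp background correction these values were 37 and -0.218. Under low T the median was 0.05 over the members and -0.065 over all probes, and under low P -0.068 and 0.032. The split under low P was 22 higher and 26 lower, and 44 and 4 with spike-in scaling. Glycolysis, the neighbouring pathway, had 39 members apart from the shared cytosolic glucose-6-phosphate isomerase, all of them tested. Of these 1 rose and 2 fell under low T, 0 rose and 3 fell under low N, and 3 rose and 2 fell under low P, and its medians were -0.274, -0.321 and 0.186.

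**Figure D3:**
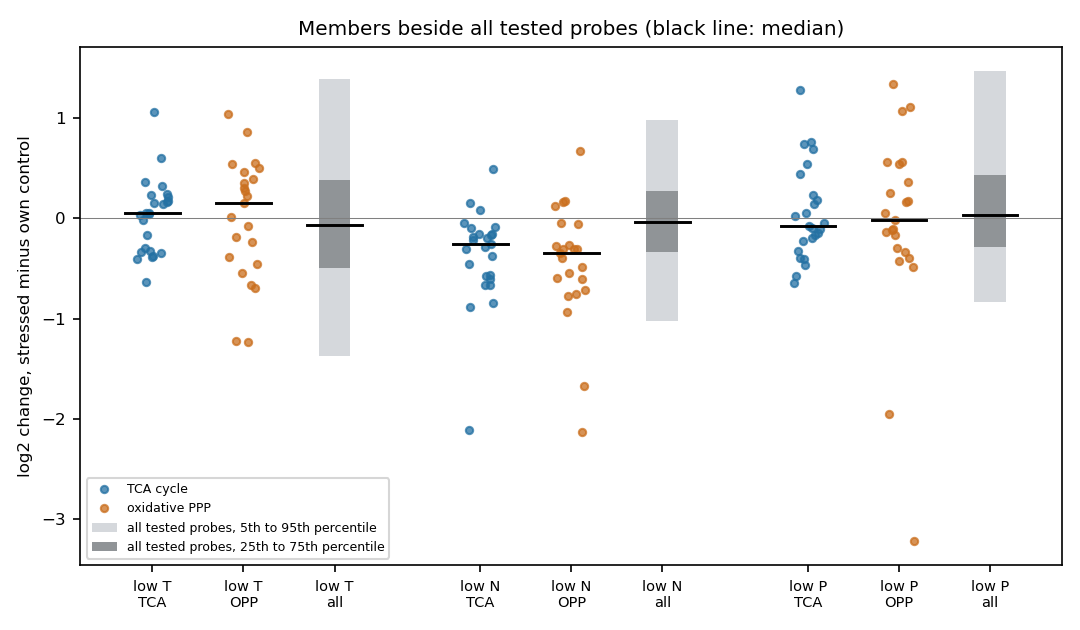
Log2 change (stressed minus own control) of the TCA cycle members (blue, n = 25) and OPP members (orange, n = 23) in each stress, with grey bars for the 5th to 95th and the 25th to 75th percentile of all 31507 tested probes. Black lines are medians; under low N both lists have medians (-0.257 and -0.35) lower than that of all probes (-0.041).

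The markers of the photosynthetic cell types moved with the stresses too. Under low T 0 of the 6 were called, under low N 1 fell (pyruvate orthophosphate dikinase, -1.22), and under low P 3 fell (the same dikinase, -1.53, and both phosphoenolpyruvate carboxykinase probes, -1.51 and -1.53). All 6 had log2 changes below 0 in each stress, between -0.75 and -0.02 under low T, -1.22 and -0.35 under low N, and -1.53 and -0.21 under low P. With each marker expressed as its deviation from the 24-array mean and then averaged, the 2 mesophyll markers ranged between -0.93 and -0.31 in low N leaves, against 0.15 and 0.61 in control N leaves, and between -1.36 and -0.44 in low P leaves, against -0.83 and 0.39 in control P leaves. The 4 bundle sheath markers ranged between -0.61 and -0.01 in low N leaves, against 0.12 and 0.46 in control N leaves, and between -1.03 and -0.39 in low P leaves, against -0.01 and 0.41 in control P leaves. Since the gene copy read by the dikinase probe was not checked, its falls are not read as a mesophyll change. The mesophyll averages include this probe and are not read so either. The carboxylase probe alone had log2 changes of -0.70 under low N and -0.23 under low P (adjusted p = 0.0231 and 0.266). The part of the markers' cell types in the lower values of members under low N and low P was not tested.

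The 3 stresses were compared directly in 1 fit over all 24 arrays, as the difference between the change in 1 stress and the change in another, called at a difference over 1 on the log2 scale with an adjusted p under 0.05. Between low T and low N 7 of 48 members differed (12.7% of all probes), between low T and low P 11 (24.4%), and between low N and low P 9 (12.0%). By sign, 6 of the 7 were higher and 1 lower under low T than under low N (6.48% and 6.22% of all probes), and 4 of the 11 were higher and 7 lower under low T than under low P (9.68% and 14.7%). The members' shares were thus 14.6%, 22.9% and 18.8%, and the differences concern 17 members. All 9 differences between low N and low P had the same sign, with the lower change under low N, where 8.27% of all probes had that sign and 3.70% the other. The largest was that of the pyruvate dehydrogenase OptiV1C12000, -2.13 ± 0.51 (SE, adjusted p = 0.00554), whose low N change had no counterpart under low P. The decreases of OptiV1C08554 and OptiV1C15127, in contrast, were not called different between low N and low P, with differences of 0.28 ± 0.3 and 1.1 ± 0.75 (SE, adjusted p = 0.558 and 0.33). Both differed between low T and each nutrient deficiency, for OptiV1C15127 by 3.17 ± 0.75 from low N and by 4.26 ± 0.75 from low P (SE, adjusted p = 0.00492 and 0.000167).

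Some members changed in opposite directions under low T and low P. All 5 members, or 10.4% of the 48, that passed the adjusted p in both stresses did so with opposite signs: OptiV1C10069 and the cytoplasmic glucose-6-phosphate dehydrogenase GRMZM2G031107 were higher under low T and lower under low P, and OptiV1C09445, OptiV1C00968 and OptiV1C00764 the reverse. Of all tested probes 8.48% passed in both stresses with opposite signs, which was 61.7% of those that passed in both. Scaled on spike-in probes only OptiV1C00764 passed in both with opposite signs, and the low P changes of OptiV1C10069 and GRMZM2G031107 were 0.19 and 0.22 (adjusted p = 0.402 and 0.376). For OptiV1C00968 the difference was -2.30 ± 0.31, for OptiV1C09445 -1.78 ± 0.21 and for OptiV1C00764 -1.76 ± 0.24 (SE, adjusted p = 9.1e-06, 1.52e-06 and 1.17e-05). Low T and low N shared 3 such members, of which 0 had opposite signs, beside 14.1% of the probes that passed in both. Low N and low P shared 5, of which 2 had opposite signs, beside 38.2%. Across the 48 members the log2 changes under low T and low P had r = -0.463, against -0.159 across all tested probes, and r = -0.363 without OptiV1C15127. These are descriptions across transcripts measured on the same arrays and not across independent samples. The changes under low N and low P had r = 0.367 with OptiV1C15127 and 0.093 without it.

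**Figure D4:**
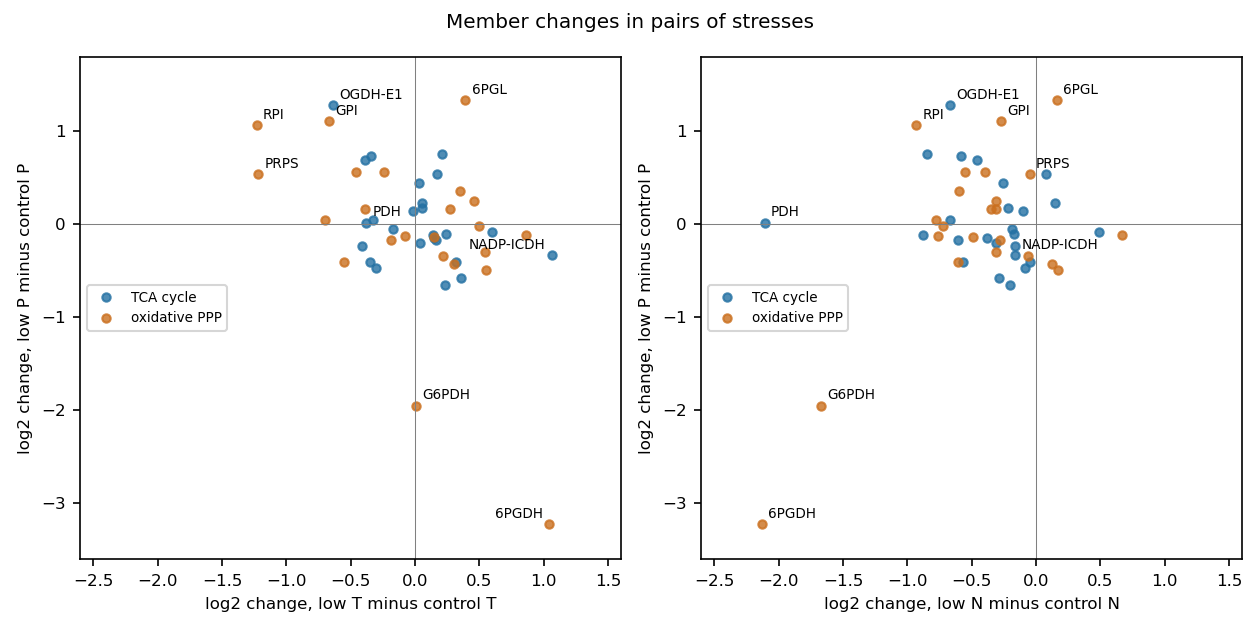
Log2 change of the 48 members under low P (vertical axes) against that under low T (left) and low N (right), each relative to its own control. Named points are the 9 members called in at least 1 stress. GPI, RPI, PRPS and OGDH-E1 lie below 0 under low T and above 0 under low P (-0.67 and 1.11 for GPI, -0.64 and 1.28 for OGDH-E1). The low T change of OGDH-E1 did not pass the adjusted p (0.0739), and PDH had -0.38 and 0.02. G6PDH and 6PGDH are low in both nutrient deficiencies.

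The remaining members differed little. For 10 of 48 members no adjusted p was under 0.05, neither within a stress nor between stresses, and their log2 changes lay between -0.40 and 0.32. They include the 2 alpha subunits of the NAD-dependent isocitrate dehydrogenase, 2 of the 3 E1 subunits of 2-oxoglutarate dehydrogenase, the pyruvate dehydrogenase GRMZM2G097226 and the cytosolic glucose-6-phosphate isomerase. A further 4 members passed the adjusted p only for a difference between stresses that was under the fold limit. Transaldolase differed by 0.76 ± 0.17 between low T and low N and by -0.56 ± 0.17 between low N and low P (SE, adjusted p = 0.00283 and 0.0241). The others were the cytosolic ribulose-phosphate epimerase, the chloroplast glucose-6-phosphate dehydrogenase GRMZM2G426964 and the succinyl-CoA synthetase alpha subunit GRMZM2G039251. A p that misses the threshold does not show that a transcript was unaffected.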

How the data were processed

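Each of the 24 leaf RNAs was hybridized, with a single dye, to its own custom Agilent array. The intensity values are the background-subtracted spot signals that the authors obtained with Agilent Feature Extraction (version 11.7.1 in the submitters' processing notes) and deposited without normalization between arrays. The authors also deposited a table of log2 values, which equals these signals up to 1 constant per array and per probe (largest median residual 2.46e-07) and was used as an alternative only.

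Here the log2 intensity minus the 75th percentile of the 41780 transcript probes was taken per array. Spots flagged as outliers were removed, and a probe was kept if it was well above background throughout at least 1 group of 4 arrays (31507). Each stress was set against its own control with limma (version 3.58.1, R 4.3.3; lmFit, eBayes) on 8 arrays, and differences between stresses were tested in 1 fit over 24 arrays. Every adjusted p is limma's, after Benjamini-Hochberg over all kept probes, and errors are limma's standard errors. The fits were tested on simulated data. The number of arrays per group limits the precision, as does a signal close to background. Where a group was not well above background on any array, a fold was also computed with a floor. Per array it used whichever was higher, the probe's own signal or the dimmest signal still well above background. For normexp, the median signal of a spot and an offset of 50 were used, since the files hold no mean signal; this was chosen after seeing the data. Alternatives were other background corrections, scalings and filters, left-out replicates, and slide or replicate blocks.

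Same-numbered arrays deviated together in the low T and low N experiments (r = 0.189 to 0.424 and 0.176 to 0.363 across probes). The replicate number was used as a block in an alternative fit only. Errors and adjusted p values given without a named alternative come from fits without pairing or block. A pairing by number would rest on these correlations only. Arrays of different number among replicates 1 and 2, or among 3 and 4, correlated about as much (0.17 to 0.414 and 0.109 to 0.347). The labels do not say whether the replicates of a group came from separate plants, beyond calling them biological.

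All 48 members are accounted for. Array values are given for those called, log2 changes for those that pass the adjusted p alone or differ between stresses, and ranges for the others. The members, the glycolysis list and the markers were chosen with earlier results of these data known. Descriptions are the study's, and synonyms come from a RefSeq gene table (assembly Zm-B73-REFERENCE-NAM-5.0), which matched 40 of 48 loci. Sequences were not used here. Python 3.11.15 was used for tables and plots.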

Additional observations from a re-analysis of the deposited data

Results flagged for a closer look

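All of these results concern transcripts whose change differed between 2 stresses by the test of the difference itself, with 4 stressed and 4 control arrays in each experiment. Of the 48 members 17 were involved in 27 such differences. Each value is the log2 change in the stress named first minus the log2 change in the stress named second. In the 54 groups of 4 arrays of the called members, no array stood apart from the other 3 by the ratio of its gap to the range (Dixon's limit for 4 values).

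Between low T and low N, OptiV1C15127 (6-phosphogluconate dehydrogenase) differed by 3.17, OptiV1C12000 (pyruvate dehydrogenase) by 1.73 and OptiV1C08554 (glucose-6-phosphate dehydrogenase) by 1.68. OptiV1C10069 (NADP-dependent isocitrate dehydrogenase) and OptiV1S22785 (a chloroplast glucose-6-phosphate dehydrogenase, GRMZM2G429493) differed by 1.22 each, OptiV1C13448 (aconitase, GRMZM2G467338) by 1.02 and OptiV1C00764 (ribose-phosphate pyrophosphokinase) by -1.17. The differences of OptiV1C12000, OptiV1S22785 and OptiV1C13448 were called under 7 of 11 alternatives each (adjusted p up to 0.125, 0.129 and 0.3). That of OptiV1C10069 was lost under spike-in scaling (0.87, adjusted p = 0.119) and that of OptiV1C15127 without replicate 1 (2.9, adjusted p = 0.0502). The low T changes of OptiV1C12000, OptiV1C15127 and OptiV1C08554 had opposite signs on the 2 slides.

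Between low T and low P, OptiV1C15127 differed by 4.26, OptiV1C08554 by 1.96, OptiV1C10069 by 1.39 and OptiV1C04302 (ribose-5-phosphate isomerase, GRMZM2G104070) by 1.04. The opposite sign was found for OptiV1C00968 (ribose-5-phosphate isomerase, GRMZM2G035599) with -2.30, OptiV1S26218 (2-oxoglutarate dehydrogenase E1) with -1.93, OptiV1C09445 (glucose-6-phosphate isomerase) with -1.78 and OptiV1C00764 with -1.76. It was also found for OptiV1C12836 (citrate synthase, GRMZM2G063851) and OptiV1C15308 (fumarase), with -1.08 each, and for OptiV1C01002 (6-phosphogluconate dehydrogenase, GRMZM2G127798), with -1.03. OptiV1C04302 and OptiV1C01002 were called under 8 of 11 alternatives and OptiV1C12836 and OptiV1C15308 under 9.

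Between low N and low P all differences were below 0: -2.13 for OptiV1C12000, -2.01 for OptiV1C00968, -1.95 for OptiV1S26218, -1.61 for OptiV1N39401 (putative malate dehydrogenase), -1.37 for OptiV1C09445 and -1.33 for OptiV1C12836. The others were -1.18 for OptiV1C11022 (6-phosphogluconolactonase-like), -1.14 for OptiV1C15308 and -1.10 for OptiV1C11266 (transketolase). The last was called under only 5 of 11 alternatives (adjusted p up to 0.167), and was lost without replicate 1, 2 or 3. OptiV1C12000 was lost without replicate 1 (adjusted p = 0.0569), and OptiV1C12836 and OptiV1C11022 under spike-in scaling (0.0733 and 0.0716). OptiV1N39401 was well above background on only 1 of 4 low N arrays and 0 of 4 control P arrays.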

How the results depend on the processing

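The calls within a stress kept their direction under every alternative run. Without the fold limit 9 members passed under low T, 13 under low N and 23 under low P, and 13, 23 and 24 for the differences between low T and low N, low T and low P, and low N and low P. Scaling on spike-in probes gave 13 called members under low P, 3 differences between low T and low N and 5 between low N and low P. Normexp background correction gave 4 differences between low T and low N. The putative malate dehydrogenase OptiV1N39401 turned to 0.06 (low N minus low P, adjusted p = 0.978) under normexp and was called under 4 of its 10 alternatives; the cause was not tested. With a replicate left out, called members ranged between 2 and 3 under low T, 3 and 4 under low N and 5 and 7 under low P. The differences ranged between 5 and 7 for low T and low N, 9 and 13 for low T and low P, and 7 and 10 for low N and low P. With the replicate block 3, 3 and 6 members were called under low T, low N and low P, with 7, 11 and 9 differences, and the block changed no other call made with the fold limit in these members. In the low P experiment same-numbered arrays did not deviate together (r = -0.104 to 0.0452), so that there they share only a number, and 0 of 4 low P arrays were closest to their own number. Slide as a block left 3 members called under low T, and as a random block 4 under low N.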
